A study of Arabidopsis thaliana with 4 samples.

Results

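The mitochondrial genome of Arabidopsis thaliana encodes subunits of the respiratory chain, ribosomal proteins, ribosomal and transfer RNAs and proteins that mature cytochrome c, and its named genes are described here across 4 RNA libraries. Members were the rows of the FPKM table with a mitochondrial locus code, no name beginning with ORF (open reading frame), and a mean above 0 over the 4 libraries. By this rule there were 22 members among 66 mitochondrial rows that are not ORF rows, 152 mitochondrial rows and 32823 rows in all. These 66 are called named rows below, although the table leaves 7 of them without a name, 1 of which (ATMG00090) is a member. FPKM is a fragment number scaled to the length of the transcript and to the total of mapped fragments, so levels of different genes are compared here per length.

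The libraries came from Col-0 seedlings, 1 each from wild type (WT) and from a line overexpressing the microRNA miR164 (miR164OE), with and without heat. Plants were grown at 22 °C, and per the labels seedlings that were 5 days old received heat at 35 °C for 5 days. The control libraries carry the same protocol text with the stress label "control" and no age of their own, so equal age at harvest is not shown. The labels name neither the promoter that drives miR164 nor the number of lines or of pooled seedlings. There were no replicates, so every difference is between single libraries and has no estimate of the spread between plants.

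Plant mitochondria make ATP by passing electrons through complexes I to IV to oxygen and letting protons back through ATP synthase. Most subunits of these complexes are encoded in the nucleus, and a small core is encoded in the mitochondrion itself. In Arabidopsis a large part of the mitochondrial genome has also been copied into chromosome 2 near its centromere, so many mitochondrial genes have near-identical nuclear copies.

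The estimated worth of 1 fragment on a transcript of 1 kb was 1.97 FPKM for WT control, 1.71 for WT heat, 2.18 for miR164OE control and 1.297 for miR164OE heat, so levels under a few FPKM rest on very few fragments. In the nuclear genome some of the highest rows run inside a gene of the other strand. For 61 such inner rows averaging 1000 FPKM or more, the rows of the surrounding genes held 0.233% of the inner rows' FPKM without and 0.486% with heat in WT, and 0.225% and 0.593% in miR164OE. Heat and control thus differed in this share by a factor of 2.08 in WT and 2.63 in miR164OE, and its part in the heat differences below was not tested. The surrounding genes' rows summed to 1131 FPKM in WT control, against 484553 for the inner rows. The table gives no strand for its rows, and which mitochondrial strand its values come from was not tested. Which strand the values of nuclear rows come from, markers included, was not tested either. Levels below are therefore those of the listed rows and may not be those of the named genes. All 3 shoot markers were above 0 in every library (25.5 to 169 FPKM), while the flower markers AP1 and AG, both seed markers and the root hair markers EXPA7 and COBL9 were listed at 0 in all libraries. Some markers differed with heat. The shoot marker LHCB1.3 was at 169 FPKM without and 25.5 with heat in WT, and at 160 and 33.7 in miR164OE. The root regulator SCR was at 7.21 FPKM without and 3.16 with heat in WT, and at 4.68 and 1.49 in miR164OE. For SHR the levels were 2.05 FPKM without and 3.62 with heat in WT, and 1.38 and 5.90 in miR164OE. The part of tissue makeup in the heat differences below was not tested. The flower marker SEP3 was at 3.07 and 1.79 FPKM in the miR164OE control and heat libraries and at 0 in WT.

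Heat was accompanied by higher levels of nearly every member in both genotypes. In WT, 19 of 22 members were at least 2-fold higher after heat and 0 were at least 2-fold lower, while of the 10488 rows averaging 1 FPKM or more 29.8% were higher and 21.7% lower. In miR164OE, 21 members were higher and 0 lower, against 32.5% and 17.2% of those rows. The median difference of the members, on the log2(FPKM + 1) scale, was 3.37 in WT and 3.55 in miR164OE, beside 0 and 0.25 over all rows. This scale understates the change of low rows. Of all rows that differed 2-fold, 57.8% were higher after heat in WT and 65.4% in miR164OE, and 74.7% and 84.8% once nuclear sums were made equal, a scaling under which 20 and 21 members were higher and 0 lower. Relative to the mitochondrial sum instead, 10 members were higher and 6 lower in WT, and 10 and 5 in miR164OE. The ORF row ATMG00030 held 563 of 1172 FPKM of that sum without and 16209 of 28927 with heat in WT. In miR164OE it held 742 of 1350 without and 19566 of 34963 with heat, so this scaling rests largely on ATMG00030. In 18 members the difference was at least 2-fold in both genotypes (15.1% of all rows), and in 19 both heat libraries lay above both controls (30.2% of all rows).

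Part of this count follows from the choice of members. Of the members, 9 were listed at 0 in both controls and could enter only through a heat library. The other 13 had a value above 0 in a control, and of these 12 were at least 2-fold higher in WT heat and 13 in miR164OE heat. No named row was above 0 in a control alone. Where a genotype's own control was above 0, heat levels were 1.82-fold to 43.4-fold the control in WT (10 members) and 4.17-fold to 76.3-fold in miR164OE (12 members). In bulk tissue, more mitochondrial RNA per cell and more of the cells that are rich in it cannot be told apart.

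**Figure D1:**
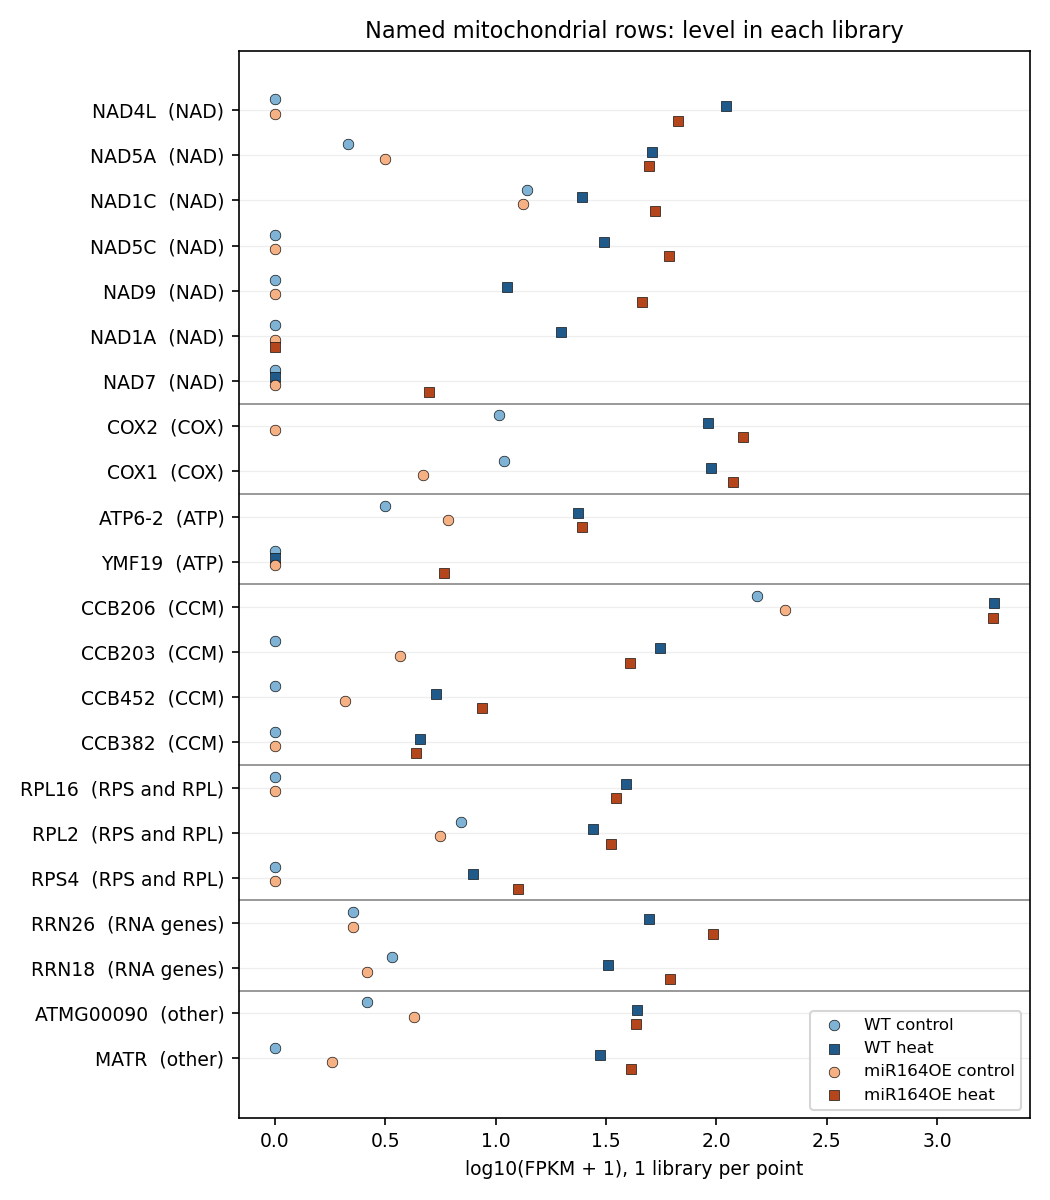
Level of each of the 22 members in each library, as log10(FPKM + 1); circles are control libraries and squares heat libraries, with 1 library per point and rows ordered by gene group. Heat points lie to the right of control points in nearly every row, and CCB206 lies far to the right of the other members in all 4 libraries.

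NAD genes encode subunits of complex I, which oxidises NADH, and 7 of 14 named NAD rows were members. NAD4L, a small subunit of the membrane arm (TAIR10 mitochondrion, 188929 to 189231), was listed at 0 in both controls and at 109 FPKM after heat in WT and 65.7 after heat in miR164OE. NAD9, a subunit of the arm that reaches into the matrix (23663 to 24235), was listed at 0 in both controls and at 10.3 FPKM after heat in WT and 45.1 after heat in miR164OE. NAD4L and NAD9 became members only through the heat libraries, so their direction with heat was fixed by the choice of members. The genotype with the higher heat level differed between these complex I genes. From the fragment worth, NAD4L rests on about 19.3 and 15.4 fragments and NAD9 on 3.44 and 19.9 in WT and miR164OE heat. Exact Poisson 95% intervals, which cover counting error only, were 66.1 to 170 and 37.1 to 108 FPKM for NAD4L, and 2.44 to 28.1 and 27.5 to 69.7 for NAD9, so those of the genotypes overlapped for both genes.

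NAD1 and NAD5 are each encoded in separate pieces whose transcripts are joined by trans-splicing, and the table gives the pieces a row each. For NAD5, the piece NAD5A was at 1.15 FPKM without and 49.8 with heat in WT, and at 2.16 and 48.4 in miR164OE. NAD5C was listed at 0 in both controls and was at 29.8 FPKM after heat in WT and 59.8 after heat in miR164OE. The middle piece, NAD5B, has 22 bases and was listed at 0 in all libraries. NAD5A was thus far above its controls in both heat libraries. NAD5C became a member only through the heat libraries, so its direction was fixed by the choice of members.

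The pieces of NAD1 gave unlike values. NAD1C was at 12.9 FPKM without and 23.5 with heat in WT, and 12.4 without and 51.5 with heat in miR164OE, the smallest heat ratios of any member above 0 in its control (1.82 and 4.17). NAD1A was listed at 18.8 FPKM in WT heat and at 0 in the other 3 libraries, on an estimated 4.25 fragments, and NAD1B was listed at 0 in all. NAD7, another matrix-arm subunit, was at 4.002 FPKM in miR164OE heat and at 0 elsewhere. NAD1A and NAD7 are therefore known from 1 library each.

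COX genes encode the core of complex IV, which passes electrons to oxygen. COX1, the catalytic subunit (349830 to 351413), was at 9.91 FPKM without and 93.4 with heat in WT, and 3.71 without and 117 with heat in miR164OE, which is 9.43-fold and 31.7-fold. Its intervals were 4.27 to 19.5 and 74.7 to 115 FPKM in WT, and 0.676 to 11.4 and 98.9 to 138 in miR164OE. Control and heat intervals did not overlap in either genotype, and those of the genotypes overlapped under both treatments. COX2, the subunit that takes electrons from cytochrome c (40502 to 42628), was at 9.32 and 90.3 FPKM in WT, 9.69-fold, and at 0 and 130 in miR164OE. COX3 was listed at 0 throughout, as was COB, the cytochrome b of complex III.

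ATP6-2, 1 of 2 rows for the proton channel subunit of ATP synthase, was at 2.14 FPKM without and 22.5 with heat in WT, and 5.06 without and 23.6 with heat in miR164OE. Its heat levels differed little between the genotypes (0.07 on the log2 scale). YMF19, which matches RefSeq's atp8, another membrane subunit, was at 4.80 FPKM in miR164OE heat on about 1.77 fragments and was listed at 0 elsewhere. ATP1, ATP6-1 and ATP9 were listed at 0 in all libraries.

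Genes of cytochrome c maturation attach heme to c-type cytochromes, and 4 of 5 rows were members. CCB206, matched to ccmB, a membrane part of the transporter in this pathway (30463 to 31083), was the highest member in every library, with 152 FPKM without and 1804 with heat in WT, and 204 without and 1785 with heat in miR164OE. These were 11.9-fold and 8.76-fold, on about 655 and 855 fragments after heat. It was the only member with a mean of at least 100 FPKM, a level that 12 of 48 ORF rows reached, and it held 66.1% to 84.1% of the members' summed FPKM. After heat its level in miR164OE was 0.989 times that in WT, with intervals of 1667 to 1908 and 1669 to 1948 FPKM.

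The other maturation genes belong to the heme lyase part of the pathway. CCB203, matched to ccmFN2, was at 0 FPKM without and 54.2 with heat in WT, and at 2.70 and 39.4 in miR164OE. CCB382, matched to ccmFN1, was listed at 0 in both controls and at 3.53 and 3.36 FPKM in WT and miR164OE heat. CCB452, matched to ccmFC, was at 0 and 4.37 FPKM in WT and at 1.07 and 7.71 in miR164OE. Heat levels in this group thus span from a few FPKM to CCB206. CCB382 became a member only through the heat libraries, so its direction was fixed by the choice of members.

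Of 6 ribosomal protein rows, 3 were members. RPL16 and RPS4 became members only through the heat libraries, so RPL2 alone could have gone either way. RPL2, of the large subunit, was at 5.96 and 26.5 FPKM in WT and at 4.59 and 32.2 in miR164OE. RPL16, also of the large subunit, was listed at 0 in both controls and was at 38.0 and 33.9 FPKM in WT and miR164OE heat. RPS4, of the small subunit, was listed at 0 in both controls and was at 6.91 and 11.6 FPKM after heat. RPL16 shares its locus (25076 to 28733) with ATMG00090, a row the table leaves unnamed, which was at 1.61 and 42.8 FPKM in WT and at 3.25 and 42.1 in miR164OE. How the authors' estimate divided fragments between these rows is not given in the sources used here.

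Both large ribosomal RNAs were members, and they are structural RNAs of the mitochondrial ribosome. RRN26 was at 1.26 FPKM without and 48.7 with heat in WT, and 1.25 without and 95.003 with heat in miR164OE, which is 38.7-fold and 76.3-fold. RRN18 was at 2.38 and 31.2 FPKM in WT and at 1.62 and 60.6 in miR164OE, 13.1-fold and 37.4-fold. In both, miR164OE heat was the highest library and the controls were close to each other. The RRN18 intervals in WT heat (21.8 to 43.4 FPKM) and miR164OE heat (48.7 to 74.4) did not overlap. They cover counting error only and leave out the spread between plants. RRN5 and all 21 rows with a transfer RNA name were listed at 0.

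MATR encodes a maturase that takes part in intron splicing and lies inside an intron of NAD1, and the table gives it the same locus as NAD1C (143219 to 147048). It was at 0 and 28.6 FPKM in WT and at 0.813 and 40.0 in miR164OE. MATR was near 0 in both controls, where NAD1C was above 12 FPKM, so these rows of 1 locus differed most in the controls.

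The genotypes were compared next. Between the controls, 2 members were at least 2-fold higher in miR164OE (CCB203 and CCB452) and 2 lower (COX1 and COX2), where 16.8% and 18.9% of all rows were, and the members' median difference was 0. The 9 members listed at 0 in both controls draw this median to 0. CCB203 and CCB452 were at 0 in WT control, and at 2.70 FPKM (about 0.757 fragments) and 1.07 FPKM in miR164OE control. After heat, 4 members were higher in miR164OE (NAD9, YMF19, NAD7 and NAD1C) and NAD1A was lower, where 19.6% and 13.6% of all rows were. The median was 0.40, beside 0 over all rows. YMF19 and NAD7 were above 0 only in miR164OE heat, and NAD1A only in WT heat. The direction of these rows between the heat libraries was thus fixed by the choice of members. The small counts of members between genotypes moved with the scaling. With nuclear sums made equal they were 1 higher and 2 lower between controls and 7 higher and 1 lower after heat, and relative to the mitochondrial sum 4 and 2 between controls and 3 and 1 after heat. Levels in miR164OE heat were above those in WT heat in 14 members, among them YMF19 and NAD7, and below in 8, among them NAD1A. Of the 48 mitochondrial ORF rows with a mean above 0, 33 likewise had the higher heat level in miR164OE, so this lean was not particular to the members. The matching share of all rows is not given here. Rows listed at 0 made up 56.2% of the miR164OE heat library, against 64.8% of the WT heat library. The part of this difference in the lean was not tested. The share held by rows of the surrounding genes was 1.22 times that of WT heat in miR164OE heat, and its part here was not tested.

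Across the 22 members, levels on the log2(FPKM + 1) scale in the heat libraries had Pearson's r = 0.82 and Spearman's rho = 0.83, a description over genes that share libraries and are not replicates. The heat difference in miR164OE exceeded that in WT by at least 1 on the log2 scale in 7 members and fell short of it in 2, NAD1A and CCB203, where 27.7% and 22.3% of all rows did so. With nuclear sums made equal these counts were 9 and 2, and relative to the mitochondrial sum they were 7 and 6, so the imbalance was not kept under the latter scaling. YMF19 and NAD7 counted among the 7 as deposited, and NAD1A among the 2. Each was above 0 in 1 library only, so its direction was fixed by the choice of members. COX2 had the largest excess (3.89), and its miR164OE control was listed at 0. Among the 10 members whose row matches 1 unbroken coding or RNA stretch in RefSeq (for NAD1A, a piece of its gene), for which fragments could be estimated, RRN18 alone had heat intervals that did not overlap between genotypes. The share of all rows with such separate intervals was not computed. The intervals cover counting error only, so this count is not read as a genotype difference.

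**Figure D2:**
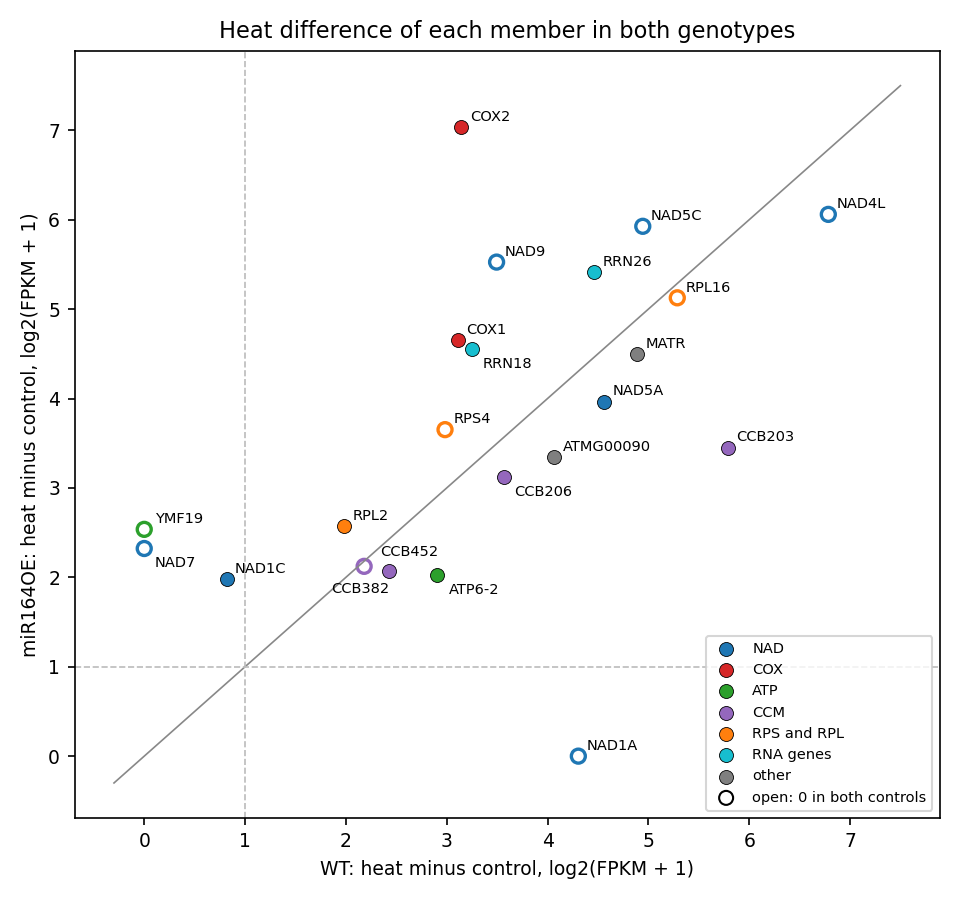
Heat minus control on the log2(FPKM + 1) scale in WT (horizontal axis) and miR164OE (vertical axis), 1 point per member, coloured by gene group. Open points are members at 0 in both controls, dashed lines mark 2-fold and the diagonal marks equal differences. COX2 lies far above the diagonal at 3.14 and 7.04, and NAD1A lies at 4.31 and 0.

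Summed FPKM of the members was 198 without and 2537 with heat in WT, and 242 without and 2701 with heat in miR164OE, a ratio of 12.8 in WT and 11.1 in miR164OE. CCB206 set much of this, and without it the ratios were 15.7 and 23.8. Mitochondrial ORF rows were 27.1-fold and 29.1-fold higher in sum, with ATMG00030 a large part of that sum in every library. The members' share of mitochondrial FPKM was therefore lower after heat, at 8.77% against 16.9% in WT and 7.73% against 17.95% in miR164OE. Plastid rows had lower sums after heat, with ratios of 0.725 and 0.495, although most single plastid rows were higher. Of 46 plastid rows averaging 1 FPKM or more, 35 were at least 2-fold higher and 2 lower in WT (median 1.91), and 28 were higher and 7 lower in miR164OE (median 1.38). Nuclear rows had sum ratios of 0.582 and 0.520. FPKM is relative within a library, so a change in the other compartments moves these ratios too.

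**Figure D3:**
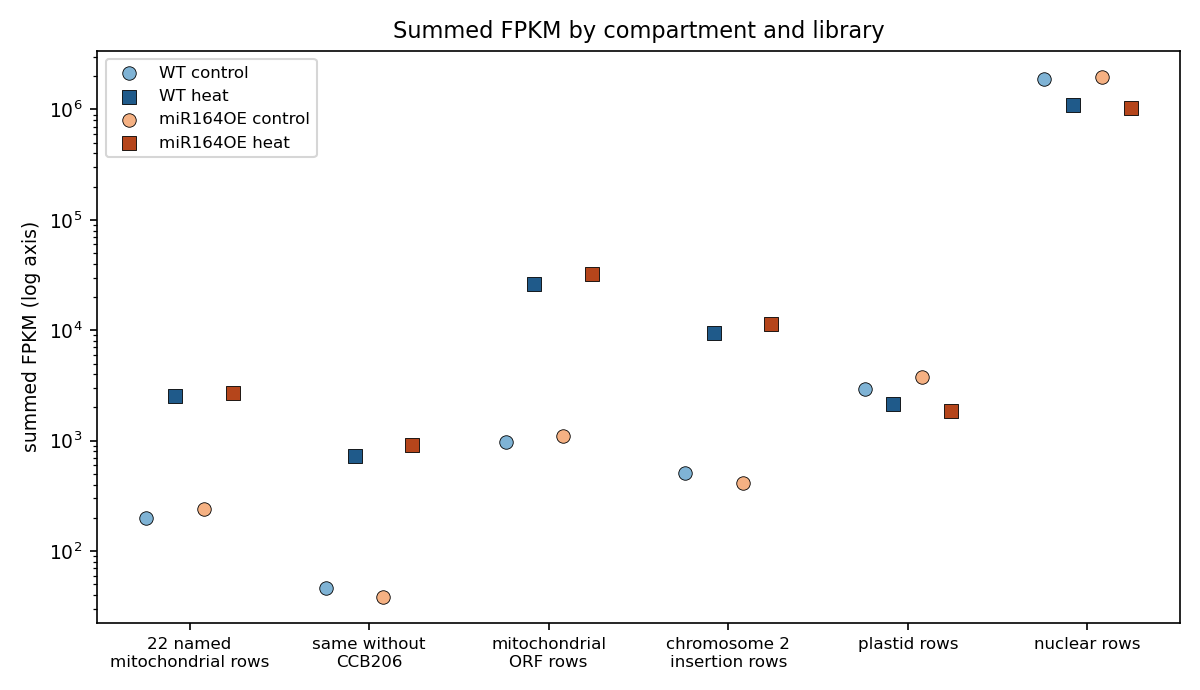
Summed FPKM (log axis) of the members, the members without CCB206, the mitochondrial ORF rows, the rows of the chromosome 2 insertion, the plastid rows and the nuclear rows, with 1 point per library (circles control, squares heat). The first 4 sets are higher in both heat libraries, and plastid and nuclear sums are lower there; nuclear rows include the insertion rows.

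Among named rows matched to a RefSeq gene, which had a value at all went with how much of their sequence occurs elsewhere in the genome. The 21 rows with a transfer RNA name and the 7 without a name, all at 0 except ATMG00090, were not searched. The relation of repeated sequence to the zeros therefore does not cover them. It was examined after the zeros had been seen. Coding or RNA sequences of 38 named rows, 21 of them members, were taken from the mitochondrial sequence that RefSeq gives with TAIR10.1, which is not the mitochondrial sequence of the table. Each 50-base window was searched in the nuclear chromosomes and in the rest of the mitochondrion. In 18 rows every window had an exact match in the nuclear chromosomes, and 14 of these 18 were listed at 0 in all 4 libraries. The other 4 were RPS4, CCB452, YMF19 and NAD1A, and none of them exceeded 18.8 FPKM.

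Of 19 rows with at least 1 window found nowhere else, 17 were above 0, with RRN5 and NAD1B as exceptions. The median of their higher heat level was 49.8 FPKM. Among these, 7 rows had at least 80% of their windows repeated, and all 7 were members, with a higher heat level of 3.53 to 54.2 FPKM. With windows of 100 bases, the 18 and 14 and the 19 and 17 were the same. NAD5B is shorter than a window and was left out. How fragments that fit several places were counted is not given in the sources used here, and its part in the zeros was not tested.

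**Figure D4:**
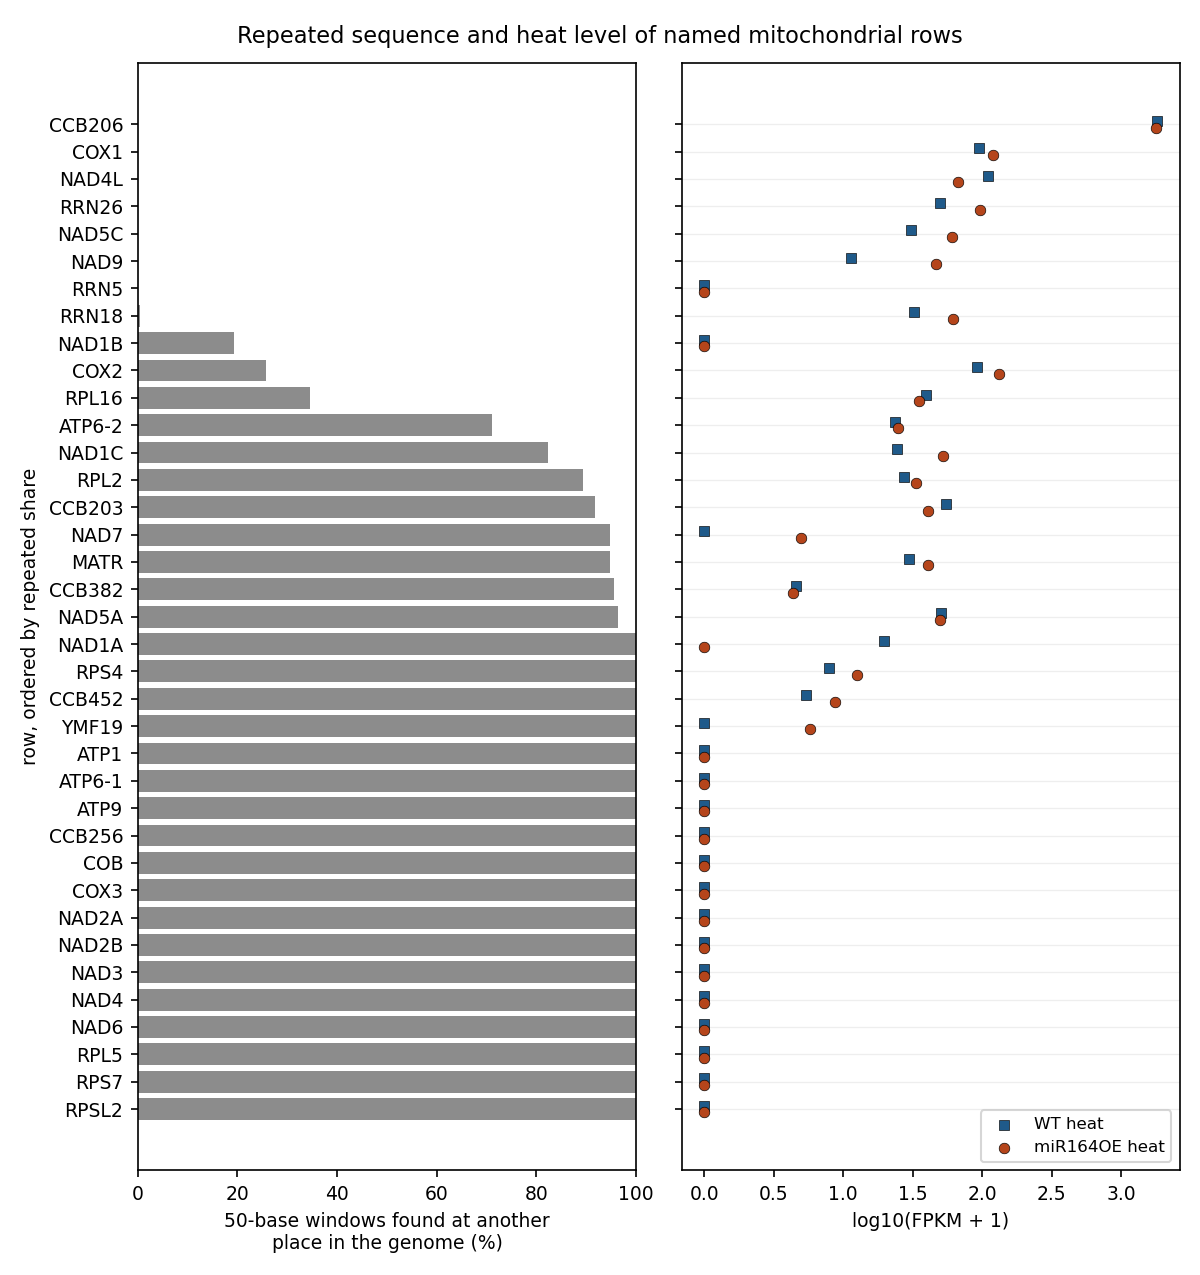
For 37 named rows, the left panel gives the percentage of 50-base windows that occur at another place in the nuclear or mitochondrial genome, and the right panel the level in both heat libraries as log10(FPKM + 1). Rows are ordered by the repeated share. Of the 18 rows at 100%, 14 lie at 0 in both heat libraries, and all other rows with a repeated share under 100% except RRN5 and NAD1B lie above 0 in at least 1.

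The pair of ATP6 rows shows both sides of this. All windows of ATP6-1 were repeated, and it was listed at 0, while 71.1% of those of ATP6-2 were, and it was at 22.5 and 23.6 FPKM after heat. COB and COX2 show the contrast at the level of bases. COB, listed at 0, has a chromosome 2 copy with 0 differences over 1182 bases, of which the first 90 are printed from both genomes. COX2, at 90.3 and 130 FPKM after heat, has 25.8% of its windows repeated, and its longest nuclear match has 11 differences over 306 bases. Its windows occurred elsewhere in the mitochondrion (25.1%) more often than in the nucleus (18.5%). The 150 bases of that match with the most differences are printed, with capitals marking the 10 differing bases. Sequences are RefSeq's, 5′ to 3′ along the coding strand, with TAIR10.1 coordinates.
cob, mitochondrion, MT:182769-182858, minus strand: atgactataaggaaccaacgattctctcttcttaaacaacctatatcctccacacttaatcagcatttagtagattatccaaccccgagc
cob copy, chr2:3450863-3450952, plus strand: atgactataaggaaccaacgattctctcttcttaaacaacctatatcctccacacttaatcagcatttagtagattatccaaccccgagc
cox2, mitochondrion, MT:6407-6556, plus strand: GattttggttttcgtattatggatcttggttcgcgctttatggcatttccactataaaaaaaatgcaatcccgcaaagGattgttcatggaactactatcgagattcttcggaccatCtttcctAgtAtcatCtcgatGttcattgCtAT
cox2 copy, chr2:3347094-3347243, plus strand: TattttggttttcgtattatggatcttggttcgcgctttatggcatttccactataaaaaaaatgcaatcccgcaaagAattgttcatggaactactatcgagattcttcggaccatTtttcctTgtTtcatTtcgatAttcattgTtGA

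By genome sequence, a fragment from the cob stretch fits both printed places equally. One from the cox2 stretch that covers a capital fits 1 of the printed places better, but it may also fit another place in the mitochondrion. The 4 members with the highest mean of both heat levels, CCB206, COX1, COX2 and NAD4L, all had under 26% of their windows repeated, and CCB206, COX1 and NAD4L had none. Below them the order was mixed. RRN26 (0% repeated) had a mean of 71.8 FPKM. NAD5A (96.3%) and CCB203 (91.7%) had means of 49.1 and 46.8 FPKM, above RRN18 (0.4%) at 45.9, NAD5C (0%) at 44.8 and NAD9 (0%) at 27.7.

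Rows of the nuclear copies were read beside the members. The copies of at least 200 bases and 99% identity, 34 in number, lay between 3239693 and 3503476 on chromosome 2 (TAIR10.1, with nuclear coordinates equal to those of the table). The table has 123 rows in this interval, 60 of them above 0. Their summed FPKM was 508 without and 9543 with heat in WT, and 416 without and 11496 with heat in miR164OE, ratios of 18.8 and 27.6. Of 51 averaging 1 FPKM or more, 44 were at least 2-fold higher after heat in WT and 47 in miR164OE, and 0 were lower in either. Rows inside a nuclear chromosome thus moved with the mitochondrial rows and against the nuclear sum, and whether their fragments came from the nucleus or the mitochondrion cannot be told apart.

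Among 20 of these rows that run along the copied strand of a gene, 7 were listed at 0 in all libraries, 13 were above 0 in a heat library and 5 in a control. The highest was AT2G07695, over the cox2 match, at 5.49 FPKM without and 32.1 with heat in WT, and 3.17 without and 50.6 with heat in miR164OE. AT2G07698, over the atp1 copy, was listed at 0 in both controls and at 8.66 and 6.15 FPKM after heat, where the mitochondrial ATP1 was listed at 0. AT2G07727, over the cob copy, was at 6.18 and 4.73 FPKM after heat and at 0 in the controls. The loci of these rows span 1898, 2665 and 3243 bases, against 306, 1524 and 1182 in the matched stretch, so the loci reach beyond it. How much of each row's transcript lies outside the matched stretch was not examined. With 50.6 FPKM as the highest level among the 20, most of the interval's summed FPKM after heat lies in its other rows. Rows on the opposite strand of a copy were not among the 20. The highest of them, AT2G05255, was at 20.9 and 49.1 FPKM in WT and at 0 and 154 in miR164OE.

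Nuclear genes that work with the members were compared in the same way. Of 75 nuclear genes for respiratory complexes, alternative oxidases and dehydrogenases and organelle RNA polymerases, 18 were listed at 0 and 36 had a mean of at least 1 FPKM. In WT, 7 of the 36 were at least 2-fold higher after heat and 8 lower (median 0), where 29.8% and 21.7% of all rows were. In miR164OE, 16 were higher and 2 lower (median 0.74), where 32.5% and 17.2% of all rows were. The same shares stand beside the smaller lists that follow. Of 12 nuclear complex I genes, 2 were higher and 5 lower in WT, and 4 higher and 0 lower in miR164OE. Of 4 nuclear complex IV genes, 2 were higher in WT (median 0.99) and 3 in miR164OE (median 3.13), and 0 were lower in either. CA2, a carbonic anhydrase-like subunit of complex I, was at 94.6 and 113 FPKM in WT and at 98.2 and 104 in miR164OE. COX6B-2, of complex IV, was listed at 0 in both controls and at 16.8 and 4.55 FPKM after heat. OSCP, the stalk subunit of ATP synthase, was at 10.8 and 4.61 FPKM in WT and at 2.05 and 14.9 in miR164OE. None of the 5 alternative oxidases or 3 organelle RNA polymerases had a mean of at least 1 FPKM. Which strand these nuclear values come from was not tested, so a low row need not mean a low transcript.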

How the data were processed

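RNA from 4 seedling samples, 1 per genotype and treatment, was taken up in Trizol, and Agilent's strand-specific SureSelect kit served for the libraries, per the labels' protocols. A table of FPKM values, 1 column per sample, is what the authors deposited, per the file headers. The submitters' processing notes list bcl2fastq 2.1.7, TopHat, Cufflinks and TAIR10. The treatment of fragments fitting several places, the setting for strand, the TopHat and Cufflinks versions, any selection for polyadenylated RNA and the depth of sequencing: each is not given in the sources used here. All value columns matched 1 sample each.

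Differences were taken between log2(FPKM + 1) values, and a difference of at least 1 (2-fold) was called. With 1 library per group no test was made and no p-value computed. Rows averaging 1 FPKM or more formed the background, and all 22 members passed this minimum, 16 of them a minimum of 5. The 2-fold call and the estimate of the worth of 1 fragment were tested on simulated data, and the other steps were not. Members and gene lists were chosen with earlier results of these data known. Every member could be named. Of each nuclear list, the 3 members with the largest mean heat difference in size and a mean of at least 5 FPKM could be, as could chromosome 2 rows of a member's gene.

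The FPKM worth of 1 fragment was the mode of FPKM times exon length over rows of 800 to 2500 bases, without overlapping genes and under 6 FPKM. It gives approximate fragment numbers, with exact Poisson 95% intervals for counting error only. Inner rows had at least 90% of their exon bases inside a gene of the other strand and a mean of at least 1000 FPKM. Start and end of 22475 of 22477 nuclear rows at single-gene loci equalled those of TAIR10.1. The mitochondrial sequence of TAIR10.1 is another one than that of the table, so named rows were matched by gene, and 26 of 38 had a span within 5 bases of RefSeq's. Nuclear copies were found with BLAST 2.17.0 and overlaps with bedtools 2.31.1. Python 3.11.15 with pandas 2.3.3, numpy 2.4.6 and scipy 1.17.1 did the rest. Alternatives were other pseudocounts, row minimums and scalings, rows of at least 300 bases, members without an overlapping mitochondrial row and, added after the data were seen, members with sequence found nowhere else.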

Additional observations from a re-analysis of the deposited data

How the results depend on the processing

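Of 63 recomputed values, 51 stayed within 1.5 times the reported count or 0.5 of the reported median, 12 moved further, and 0 changed sign. Some of the 51 could not move. All 22 members passed the alternatives with no further row minimum and with at least 300 bases, which therefore repeated the reported values. Rescaling mitochondrial rows to a common sum, which removes their joint difference by construction, lowered the count of members at least 2-fold higher after heat from 19 to 10 in WT and from 21 to 10 in miR164OE, and the medians to 0.70 and 0.69; 6 and 5 members were then lower. Rescaling nuclear rows to a common sum raised the medians to 3.91 in WT and 4.22 in miR164OE; it moved the median of all rows to 0.65 and 1.01, and the share of higher among all 2-fold rows from 57.8% to 74.7% and from 65.4% to 84.8%. A pseudocount of 0.1 gave medians of 5.18 and 5.13, and one of 5 gave 2.51 and 2.71. By arithmetic, a smaller pseudocount enlarges the difference of any row that is higher after heat, most of all where the control is near 0. In miR164OE the median was 4.53 with a mean of at least 5 FPKM (16 members) and 4.50 over 17 members with sequence found nowhere else. Under the other alternatives the counts were 15 to 20 and 16 to 21, from fewer members in some. The genotype medians stayed at 0 between controls and between 0.13 and 0.50 after heat. Between controls, the 9 members listed at 0 in both draw the median to 0. Overlap was judged from the table's loci, since exons of its mitochondrial annotation were not used here. The labels give no replicate numbers to pair the libraries by, and a fit of heat with genotype as a block was not run. With 1 library per group no replicate could be left out. Depth limits members under about 5 FPKM, which rest on few fragments.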
